A study of Mus musculus with 2 samples.

Results

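Perp, Eda2r, Phlda3, Fas, and Aen were examined in the RNA sequencing data. They are 5 of the 24091 genes listed in the expression table. They were chosen by name as targets of p53 that act at membranes or in death signalling, outside the BCL2 family. They were picked on the basis of earlier results from the same 2 libraries, so their values are given as a description, and no count over them is support for a direction. p53, encoded by Trp53, is a transcription factor that is stabilised after DNA damage. It switches on genes for cell cycle arrest and repair as well as genes that can kill the cell. Among the latter are genes for receptors on the cell surface, which pass a death signal through adaptor proteins to caspases, the proteases of apoptosis. Of the 5 genes, Fas and Eda2r encode receptors of the TNF receptor superfamily, Perp encodes a membrane protein of cell junctions, and Phlda3 encodes a protein that binds membrane lipids. Aen encodes a nuclease of the nucleus, so it belongs by its part in death signalling and not by a place in a membrane.

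The study material was primary adipocytes of gonadal fat from C57BL/6 mice, with 1 library from mice that received sham irradiation and 1 from mice that received pelvic irradiation. The radiation is labelled as 7.5 Gy with 5 days, and it is not stated if 7.5 Gy is a daily dose or the sum. Fat was taken 2 months after radiation, digested with collagenase, and the floating cells were cultured for 3 days, in both conditions. Both sample titles also name PBS, whose role is not stated, and the age, the sex, and the number of the mice are not stated either. With 1 library per condition there was no replicate, no test between conditions was possible, and an effect of radiation and any other difference between the cultures cannot be told apart. Sequencing depth, found from the values, came to about 30582000 fragments (sham-irradiated) and 34986000 fragments (irradiated). Levels are given as FPKM, the fragments of a gene scaled to its length in kilobases and to the depth of the library, which allows genes of different length to be compared. The interval beside each level or fold is an exact 95% interval (Poisson for a level, Clopper-Pearson for a ratio) that covers counting error only, not the variation between mice or cultures, and copies made by PCR count as separate fragments.

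The labelled cell type was checked against 10 markers of mature adipocytes, and 8 of them did not reach an FPKM of 1 in either library. Adipoq, which encodes the hormone adiponectin, was at an FPKM of 0.133 on 5 fragments and 0.232 on 10 fragments. Fabp4, a fatty acid carrier that macrophages and endothelial cells also express, was the most abundant marker, at 96.9 in both libraries. Of the 8 fibroblast and progenitor markers, all reached an FPKM of 1 in both libraries, and Col1a1 was at 1937 and 1428. Pparg, a regulator of fat cell formation, was at 4.59 and 4.69. The values of the 5 genes are therefore those of a culture that expressed fibroblast markers and in which 8 of 10 adipocyte markers were below an FPKM of 1. All 10 macrophage markers and all 8 endothelial markers described below also reached an FPKM of 1 in both libraries. In such bulk RNA, more cells of a type and more RNA per cell cannot be told apart.

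Perp, Eda2r, Phlda3, and Aen were higher in the irradiated library by more than counting error, while Fas was at the same level in both within counting error. The fold differences ran from 1.03 for Fas to 2.89 for Perp. The gene with the lowest level had the largest fold difference, and the gene with the highest level, Phlda3, lay in the middle.

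**Figure D1:**
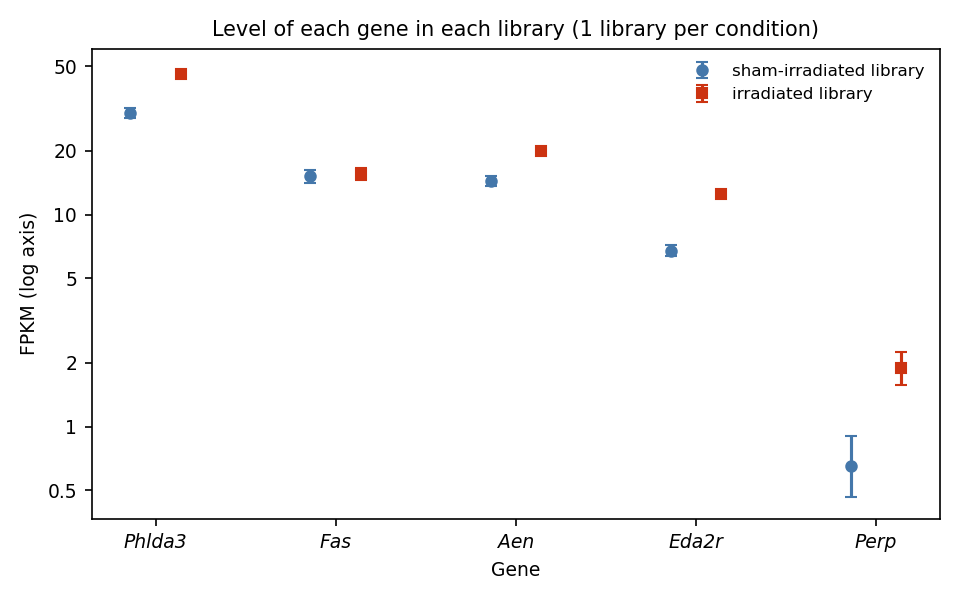
FPKM of each gene (log axis) in the sham-irradiated library (circles) and the irradiated library (squares), 1 library per condition, with bars for the exact 95% Poisson interval of the fragments. The intervals of both libraries overlap for Fas and lie apart for Phlda3, Aen, Eda2r, and Perp.

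Fas (Fas, TNF receptor superfamily member 6) is the receptor for Fas ligand and carries a death domain, the part of the protein that binds the adaptor FADD. In mm10 coordinates, the gene lies at chr19:34290659-34327770 on the plus strand, and its main transcript in the GENCODE annotation, Fas-201, has 9 exons. The FPKM of Fas was 15.1 (14.1 to 16.2) in the sham-irradiated library on 829 fragments and 15.6 (14.6 to 16.6) in the irradiated library on 976 fragments. The levels overlapped, and the ratio was 1.03 (0.937 to 1.13). A ratio above 1.13 lay outside the counting interval. On the log2 scale of the table, the difference of 0.04 was close to the median of 0.02 over all genes kept.

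Eda2r (ectodysplasin A2 receptor) encodes a receptor for an isoform of ectodysplasin A, a ligand of the TNF family. It has no death domain and passes its signal through TRAF proteins. The gene lies at chrX:97333841-97377209 on the minus strand, and its transcript Eda2r-201 has 8 exons. The FPKM of Eda2r was 6.77 (6.39 to 7.16) in the sham-irradiated library on 1219 fragments and 12.5 (12.0 to 12.9) in the irradiated library on 2567 fragments. The level in the irradiated library lay clear of the sham-irradiated level, at a fold of 1.84 (1.72 to 1.97). Eda2r was thus the less abundant of the 2 receptors in both libraries, but its level relative to Fas went from 0.447 to 0.80.

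Perp encodes a membrane protein of the PMP22 and EMP family, which is part of desmosomes, the junctions that hold epithelial cells together. The gene lies at chr10:18845071-18857072 on the plus strand, and Perp-201 has 3 exons. The FPKM of Perp was 0.653 (0.464 to 0.899) in the sham-irradiated library on 38 fragments and 1.89 (1.57 to 2.24) in the irradiated library on 125 fragments. The intervals lay apart, and the fold of 2.89 was known only to between 1.99 and 4.25 because of the few fragments in the sham-irradiated library. The deposited values of Perp differed by 1.40 on the log2(FPKM + 0.1) scale, and without the added 0.1 the log2 ratio was 1.53, since an added constant pulls small values together. Perp was among the least expressed genes kept in the sham-irradiated library, at rank 11207 of 11253, and it passed the filter of an FPKM of at least 1 only through the irradiated library. Perp therefore had to differ between the libraries in order to be kept. Its low rank in the sham-irradiated library also follows from the filter, since only 235 genes kept were below an FPKM of 1 there.

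Phlda3 (pleckstrin homology like domain, family A, member 3) encodes a small protein with a pleckstrin homology domain. It competes with the kinase AKT for membrane lipids and so holds back a survival signal. The gene lies at chr1:135766085-135769134 on the plus strand, and Phlda3-201 has 2 exons. The FPKM of Phlda3 was 30.2 (28.6 to 31.8) in the sham-irradiated library on 1352 fragments and 46.1 (44.3 to 48.0) in the irradiated library on 2363 fragments. The irradiated level was higher with no overlap, at a fold of 1.53 (1.43 to 1.63).

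Aen (apoptosis enhancing nuclease) encodes an exonuclease of the ISG20 family that degrades DNA and RNA. The gene lies at chr7:78895927-78908833 on the plus strand, and each of its 3 transcripts in the basic GENCODE set has 4 exons. The FPKM of Aen was 14.4 (13.6 to 15.3) in the sham-irradiated library on 1199 fragments and 20.01 (19.1 to 20.9) in the irradiated library on 1904 fragments. Again the intervals did not overlap, and the fold was 1.39 (1.29 to 1.49).

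From highest to lowest, the order of the levels in the sham-irradiated library was Phlda3, Fas, Aen, Eda2r, and Perp. Fas and Aen were neighbours whose intervals overlapped there, with a ratio of Fas to Aen of 1.05. In the irradiated library, Aen stood above Fas with no overlap, and the same ratio was 0.778. All other neighbours in the order of levels lay apart by more than counting error in both libraries. The FPKM of Phlda3 was 46.2-fold that of Perp in the sham-irradiated library, where Perp had 38 fragments, and 24.4-fold in the irradiated library, whereas its ratio to Fas was 1.99 and 2.96. For the fold differences between libraries, the intervals of Phlda3 and Aen overlapped, and those of every other pair of the 5 genes lay apart, although Perp and Eda2r did so only narrowly.

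The differences were also placed among the 11253 genes kept, those that reached an FPKM of 1 in one or both libraries. Perp was the only one of the 5 genes that was higher by at least 1 on the log2 scale, a size reached by 0.791% of all genes kept. Perp, Eda2r, and Phlda3 were higher by at least 0.5, as were 4.31% of all genes kept, and Aen was just under that size at 0.47. The counting interval lay above 0 for 4 of the 5 genes and for 23.8% of all genes kept. By size of difference, Perp ranked 33, Eda2r 122, Phlda3 304, Aen 530, and Fas 4829 of 11253. Since the genes were chosen with this comparison known, nothing is read from these shares and ranks.

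Other p53 targets were listed for comparison, and their differences ran from -0.56 to 1.27. Of 47 such genes, 45 were kept, none of them through 1 library only. Of these, 14 were higher by at least 0.5 and 1 was lower by that much, beside 4.31% and 1.44% of all genes kept. The median difference was 0.28, beside 0.02 for all genes kept. The same shares and median stand beside the counts of each list that follows. The list was written with earlier results of these libraries known, so the counts describe it and do not test it.

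Among 17 targets of cell cycle arrest and p53 feedback, 8 were higher by at least 0.5 and 0 lower, and the median was 0.40. Cdkn1a, which encodes the cell cycle inhibitor p21, had an FPKM of 51.2 and 124 in the sham-irradiated and irradiated libraries, a difference of 1.27. Psrc1, a gene of spindle microtubules, and Trp53inp1, a p53-induced regulator of stress responses, differed by 0.97 and 0.96. Mdm2, which encodes the ubiquitin ligase that removes p53, differed by 0.82, close to the 0.87 of Eda2r. Ccng1, the cyclin gene with the highest FPKM of this list, was at 99.6 and 159, with a fold of 1.59 near the 1.53 of Phlda3. The counting interval lay above 0 for 14 and below 0 for 2 of the 17 genes, beside 23.8% and 17.4% of all genes kept.

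Of the 6 BCL2 family targets, 5 were kept and 1 was higher by at least 0.5, with a median of 0.22. This was Pmaip1, which encodes the BH3-only protein NOXA, at 2.33 and 5.40, a difference of 1.18. Bax, which encodes a pore-forming protein of mitochondria, was the most abundant, at 38.2 and 46.4, a difference of 0.28. Bid differed by 0.22, and Bbc3, which encodes PUMA, was at 1.73 and 1.65, within counting error.

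Among 16 targets of repair and metabolism, 15 were kept, 2 were higher by at least 0.5, and 1 was lower by that much, with a median of 0.23. Those higher were Ephx1, an epoxide hydrolase, by 0.82 and Polk, a translesion DNA polymerase, by 0.78. Dram1, which promotes autophagy, was lower by 0.56 on the log2 scale, with an FPKM of 50.8 and 34.4. Rps27l, the most abundant gene of the list, was at 163 and 194.

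Among 8 other p53 targets of cell death, all were kept and 3 were higher by at least 0.5, with a median of 0.335. Epha2, an ephrin receptor, was at 4.53 and 10.5, a difference of 1.19. Tnfrsf10b, the mouse receptor for TRAIL and like Fas a death domain receptor, was at 6.67 and 10.8, a difference of 0.68 (interval of the log2 ratio 0.58 to 0.80), so its interval lay apart from that of Fas. Pidd1, a death domain adaptor, differed by 0.66, and Ei24, the most abundant gene of the list, by 0.33.

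**Figure D2:**
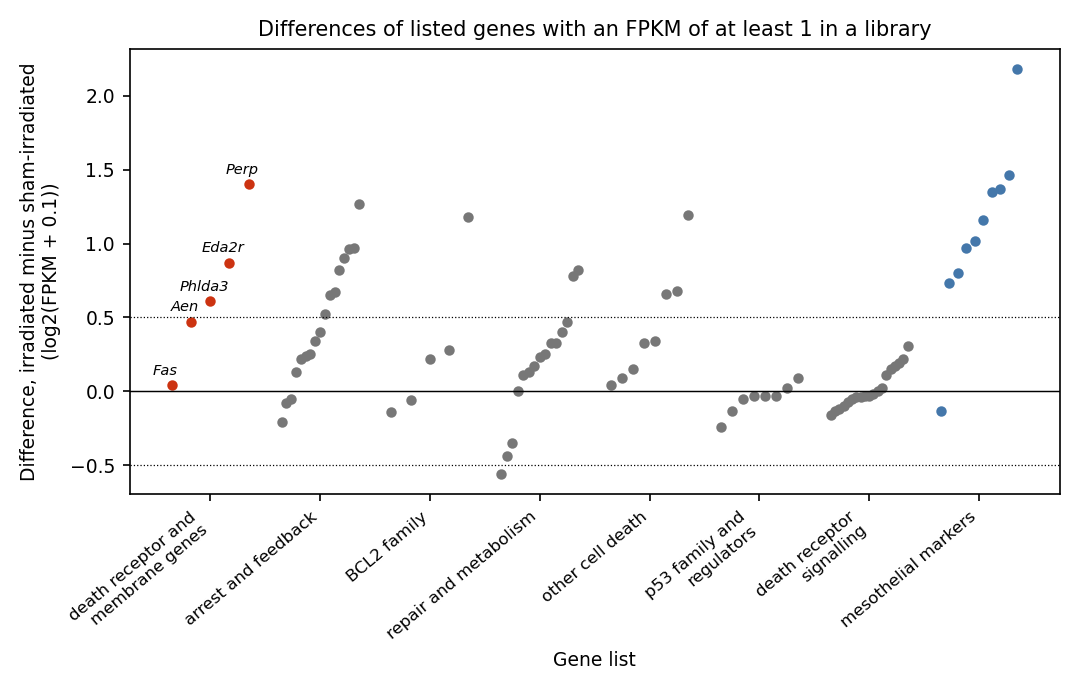
Difference between the irradiated and the sham-irradiated library on the log2(FPKM + 0.1) scale, 1 point per gene kept, ordered by size within each list, with dotted lines at 0.5 and -0.5. The 5 genes run from 0.04 (Fas) to 1.40 (Perp), death receptor signalling genes from -0.16 to 0.31, and mesothelial markers from -0.13 to 2.18.

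The RNA level of p53 itself was not higher in the irradiated library. Trp53 was at an FPKM of 50.1 and 48.4, a log2 difference of -0.05 with an interval of the ratio from -0.12 to 0.02. Its relatives Trp63 and Trp73 had 2 and 6 fragments and 1 and 3 fragments, so no difference was detectable for them. Of the 8 genes kept among p53 family members and regulators, 0 differed by 0.5 in either direction, and the median was -0.03. The largest difference was that of Chek1, a checkpoint kinase gene, at -0.24, and Atm, the gene of the kinase that senses DNA breaks, was at -0.13. Chek2 differed by 0.09, within counting error. The RNA level does not report the amount or the activity of the p53 protein, which is controlled mainly after translation.

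For the receptors, the ligands were examined next. Fasl, the ligand of Fas, had 0 fragments in the sham-irradiated library, which allows an FPKM of up to 0.0508 at 3 fragments. It had 4 fragments in the irradiated library, an FPKM of 0.0593 (0.0161 to 0.152). The interval of the log2 ratio began at -0.79, so the difference lay within counting error. Eda, which encodes ectodysplasin A, was at 0.90 on 173 fragments and 0.914 on 201 fragments, the same within counting error. Edar, the related receptor with a death domain, had 0 and 1 fragment. Eda2r was therefore the abundant ectodysplasin receptor of both libraries, with its ligand gene just under an FPKM of 1. The FPKM of Eda does not separate its isoforms, so the level of the isoform that Eda2r binds is not known.

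Among 11 death domain receptors and ligands of the family, 5 were kept, 2 of them higher by at least 0.5, beside 4.31% of all genes kept, with a median of 0.33. Besides Tnfrsf10b, this was Tnfsf15, a TNF family cytokine, at 2.67 and 9.55, a difference of 1.80. Tnfrsf1a, the main TNF receptor, was the most abundant, at 90.4 and 86.7, and Tnfrsf21 differed by 0.33.

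For the genes that carry the signal of these receptors to caspases or hold it back, the differences ran from -0.16 to 0.31. The list also holds genes of necroptosis, another form of cell death, so its counts and median pool genes of different roles. All 19 were kept, and the median difference was -0.03. By at least 0.5, 0 were higher and 0 lower, beside 4.31% and 1.44% of all genes kept. The counting interval lay above 0 for 4 and below 0 for 0 of the 19, beside 23.8% and 17.4% of all genes kept. Cflar, which encodes the caspase-8 inhibitor c-FLIP, had the largest difference at 0.31, from 8.41 to 10.5. Ripk3, a kinase of necroptosis and the most abundant of the list, was at 30.2 and 34.4, a difference of 0.19. Fadd, the adaptor of Fas, was at 4.37 and 4.16, and Casp8 at 13.5 and 14.6, both within counting error. Of the 8 genes listed around Eda2r, only Traf3, Traf6, and Relt were kept, and their differences lay between -0.05 and 0.07, with a median of 0.01. Traf6, the adaptor through which Eda2r signals, was at 3.56 and 3.74.

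Each of the other 3 genes was set beside its own family. Of the 5 relatives of Perp in the PMP22 and EMP family, all had a higher FPKM than Perp in both libraries and 0 differed by 0.5, with a median of 0.12. Emp3 differed by 0.46 and Emp1, the most abundant, by 0.42, from 67.1 to 89.8, whereas Pmp22 was at 69.5 and 66.6, Emp2 differed by 0.12, and Tmem47 by 0.02. Of 13 desmosome genes, 10 stayed below an FPKM of 1 and Dsc1 had no fragments in either, which allows an FPKM of up to 0.0174 and 0.0152 at 3 fragments. The 3 kept, Jup, Pkp2, and Pkp4, are also part of other junctions and differed by 0.29, 0.15, and 0.05, with the counting interval above 0 for Jup only. Over all 13, 10 were higher and 2 lower, beside 39.2% and 31.4% of all 24091 genes listed, many of which had no fragments. The interval was above 0 for 5 and below 0 for 0 of the 13, beside 12.9% and 8.76% of all genes listed. Besides Jup, these were Pkp1 with 0 and 18 fragments, Pkp3 with 6 and 20, Ppl with 21 and 51, and Evpl with 4 and 15, all with few fragments, as Perp had.

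Among 12 genes of the PHLDA family and AKT signalling, 10 were kept and 0 differed by 0.5, with a median of -0.015. Phlda1, another gene of the family, was at 20.9 and 29.3, a difference of 0.49. Akt1, whose product competes with PHLDA3 for lipids, was at 91.0 and 91.7. The phosphatase genes Phlpp1 and Phlpp2 differed by 0.24 and -0.19.

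Of 8 genes listed as relatives of Aen or as genes of the nucleases of apoptosis and their subunits, 6 were kept, with a median of -0.165. Their differences were all below 0, between -0.26 for Endog and -0.02 for Rexo4, while 53.5% of all genes kept were higher. The counting interval was below 0 for 2 of the 6, beside 17.4% of all genes kept. Over all 8, 1 was higher and 6 lower, beside 39.2% and 31.4% of all genes listed. Isg20, which lies 4.59 kb beyond Aen on the same chromosome, was at 3.10 and 2.71, within counting error. Dffa, which encodes a subunit of DNA fragmentation factor that is not itself the nuclease, differed by -0.17, also within counting error. Dffb, the other subunit gene, was not kept and was the 1 that was higher, by 0.13, within counting error. Rexo2 was the most abundant, at 49.4 and 46.4. Trex1 had no fragments in either library.

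Genes that mark other cell types also differed between the libraries. Of 12 mesothelial markers, genes of the cells that line the abdominal cavity and the surface of gonadal fat, 11 were in the table and 10 were kept, 5 of them only through the irradiated library. Of these 10, a difference of 0.5 or more was seen upward in 9 and downward in 0, beside 4.31% and 1.44% of all genes kept, with a median of 1.09. The 5 that passed only through the irradiated library had to be higher, and of the 5 at an FPKM of 1 or more in both libraries, 4 were higher by 0.5 or more, with a median of 0.80. Msln, which encodes mesothelin, differed by 2.18, and none of the markers in the table was without fragments. The summed FPKM of the markers went from 37.9 to 55.5, a ratio of 1.46, and Wt1, the most abundant, was at 20.4 and 18.7, a difference of -0.13. The 8 markers of other epithelia, where desmosomes abound, summed to an FPKM of 0.196 and 0.244, and Krt5 and Esrp1 had no fragments in either library. The part of mesothelial cells in the difference of Perp or of the other 4 genes was not tested.

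Of 10 macrophage markers, 4 were higher by at least 0.5, beside 4.31% of all genes kept, and the counting interval lay above 0 for 6 and below 0 for 1, beside 23.8% and 17.4%. They had a median of 0.41 and the largest difference, 0.80, shared by C1qa and C1qc. Their summed FPKM went from 591 to 629, and Lyz2, the most abundant, was at 443 and 410.05. Of 8 markers of lymphocytes, cells known to express Fas, 7 had a lower value in the irradiated library, beside 31.4% of all genes listed. The counting interval was below 0 for 3 and above 0 for 0 of the 8, beside 8.76% and 12.9%. Their summed FPKM went from 3.02 to 1.48. Cd3g, the most abundant, was at 1.12 and 0.617, and none was without fragments in both. Of 8 endothelial markers, 0 differed by 0.5, the median was 0.115, and the sum went from 44.8 to 48.4, with Emcn at a difference of 0.33 and Cdh5, the most abundant, at 16.5 and 16.2. The summed FPKM of fibroblast and progenitor markers went from 3519.5 to 2815, of which Col1a1 alone went from 1937 to 1428. Their median difference was -0.19, with Pi16 at -0.55. Of the 8, 3 were higher and 5 lower, while 53.5% of all genes kept were higher. The counting interval lay above 0 for 1 and below 0 for 4, beside 23.8% and 17.4% of all genes kept. The summed FPKM of adipocyte markers went from 104 to 105. Nearly all of this sum was Fabp4. Pparg, the other adipocyte marker kept, differed by 0.03. Over all 10 adipocyte markers, 9 were higher and 0 lower, beside 39.2% and 31.4% of all genes listed. The counting interval was above 0 for 2 of the 10, beside 12.9% of all genes listed, and these were Plin1, with 26 and 56 fragments, and Plin4, with 32 and 70 fragments. The part of these cells in the differences of the 5 genes was not tested either.

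The sequences around the gene starts were then described, among them the p53 half-site, which is tied to the choice of the genes as p53 targets. RefSeq promoters of GRCm38.p6, the assembly also called mm10, were matched for 4 of the 5 genes, not for Perp, each with 250 bases before and 50 bases after a transcript start, and Aen had 2 starts. The p53 half-site consensus is a 10-base pattern that reads the same on both strands, and a full p53 site is a pair of them. It was found in the window of Aen and not in those of Eda2r, Phlda3, or Fas, which says only that these letters are not in these windows. Over all RefSeq promoters, 8.36% of windows held it, and 9.55% of genes held it in at least 1 window. Of the other p53 targets with a window, it was in 13 of 39. A match is a description of letters and not evidence of binding.

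The match of Aen lies at chr7:78895937-78895946, in the first exon of the transcript Aen-203, at base 11 from the upstream start and base -121 from the second start. It is printed with 10 bases on each side and the half-site in capitals, beside the matches of 4 other p53 targets, so that the 10 letters can be compared. The half-sites of Bax (chr7:45467090-45467099, minus strand), Mdm2 (chr10:117710935-117710944, minus strand), and Ccng1 (chr11:40755462-40755471, minus strand) lie at bases -201, -186, and -185 from their starts, negative numbers counting back from the start. Cdkn1a held 2 in the same window on the plus strand, at base -73 (chr17:29090906-29090915) and base -51 (chr17:29090928-29090937), printed in that order.
Aen: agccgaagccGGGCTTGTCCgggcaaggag
Bax: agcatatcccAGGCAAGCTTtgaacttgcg
Mdm2: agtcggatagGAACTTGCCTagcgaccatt
Ccng1: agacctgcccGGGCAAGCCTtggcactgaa
Cdkn1a: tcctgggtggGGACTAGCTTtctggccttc
Cdkn1a: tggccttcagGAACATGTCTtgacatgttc

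For the other 3 genes with a window, the 250 bases before the start are shown. They include Fas, whose levels were the same within counting error, and those with the larger differences, Eda2r and Phlda3. Capitals mark the GC box GGGCGG, on either strand, and TATAAA, on either strand, and these motifs share no bases here. A GC box was in 35.7% and TATAAA in 13.6% of all windows of 300 bases. By gene, a GC box was in 31 of 39 other p53 targets with a window, beside 38.2% of all genes. TATAAA was in 2 of the 39, beside 15.7% of all genes. The second window of Aen, not shown, also held a GC box, at base -10. Eda2r (chrX:97377210-97377459, minus strand) held 1 GC box and 1 TATAAA, Phlda3 (chr1:135765835-135766084, plus strand) held 2 GC boxes, and Fas (chr19:34290409-34290658, plus strand) held 1. In the whole windows of 300 bases, Phlda3 held 3 GC boxes, with the last at base 19 after the start, and Fas held 2, with the last at base 29.
Eda2r: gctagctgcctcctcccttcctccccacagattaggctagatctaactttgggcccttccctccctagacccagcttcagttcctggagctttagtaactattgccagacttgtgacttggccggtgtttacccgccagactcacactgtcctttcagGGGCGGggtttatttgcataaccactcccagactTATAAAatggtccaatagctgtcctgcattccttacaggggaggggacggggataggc
Phlda3: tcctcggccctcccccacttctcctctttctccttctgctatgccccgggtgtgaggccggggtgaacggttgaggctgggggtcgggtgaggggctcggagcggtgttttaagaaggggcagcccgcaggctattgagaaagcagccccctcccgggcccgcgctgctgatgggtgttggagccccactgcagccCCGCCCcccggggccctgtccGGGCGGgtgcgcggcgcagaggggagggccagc
Fas: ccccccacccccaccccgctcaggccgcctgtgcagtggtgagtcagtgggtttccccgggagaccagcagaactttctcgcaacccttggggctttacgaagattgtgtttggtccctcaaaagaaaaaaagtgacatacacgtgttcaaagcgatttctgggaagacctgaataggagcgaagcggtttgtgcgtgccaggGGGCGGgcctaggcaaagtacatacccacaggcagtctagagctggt

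By the smallest Euclidean distance between pairs of log2 values over the 2 libraries, the kept gene most like Perp was Tpd52l1 (0.106), that most like Eda2r was Npy (0.0566), and that most like Phlda3 was Ptgs1 (0.05). Rhoj had the same rounded values as Fas, and Tubb2b was the closest to Aen (0.03). The second closest were Ifit3b (0.124), Pqlc3 (0.0671), Mmp3 (0.0539), Pef1 (0.01), and Ncs1 (0.05). Ncs1 was tied with another kept gene at the same distance from Aen and was taken by the order of the symbols. Ifit3b has a near-identical copy, Ifit3, so its level is uncertain. With 2 libraries, such a distance describes only level and difference.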

How the data were processed

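RNA was sequenced from 1 sham-irradiated and 1 irradiated library, grouped by the sample labels. The authors deposited 1 table of gene expression as log2 of FPKM plus 0.1, rounded to 2 decimals, for 24091 genes with their positions on mm10, the build given in the submitters' processing notes. No aligner, counting tool, or use of strand was given in the sources used here, so reads of overlapping genes or near-identical copies could not be told apart. The FPKM was recovered by undoing the log and taking off the 0.1. Library depth came from the steps that whole fragments leave in the values of low genes, with all 3384 and 3567 genes used lying within 0.12 of a whole number of fragments. Fragments per gene followed from FPKM, length, and depth, and a count of 0 was given the limit of 3 fragments.

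Differences are irradiated minus sham-irradiated on the deposited log2 scale, which understates the differences of low genes. A gene was kept where either library reached an FPKM of 1, which left 11253 genes. Exact 95% intervals were computed from the fragments and cover counting error only. No test between conditions was run. The members and all lists were chosen with earlier results of these data known. Of each list, the 3 genes kept with the largest difference and the most abundant gene were named, and any gene in lists of fewer than 9. Of each list of cell type markers, the most abundant gene, the gene with the largest difference, and genes with no fragments in both libraries were named. Cdkn1a, Mdm2, and Trp53 were always named, as were the 2 genes closest to each member, predicted genes left out. Adipoq, Plin1, Plin4, Trp63, Trp73, Fasl, Fadd, Casp8, Dsc1, Pkp1, Pkp3, Ppl, and Evpl fall outside that rule and were chosen after their values were seen. Cop1 was found under its older symbol Rfwd2, and Muc16 was not matched. Exons are from GENCODE and promoters from RefSeq GRCm38.p6.

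The alternatives were another pseudocount or none, scaling without the 100 most abundant genes, centring on the median difference, other filters, a lower threshold, and the mean in place of a list's median. The computation was tested on simulated data. Values were computed in Python 3.11.15 with SciPy 1.17.1 for intervals, pandas 2.3.3 and numpy 2.4.6 for tables, and matplotlib 3.10.9 for plots.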

Additional observations from a re-analysis of the deposited data

How the results depend on the processing

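Of 20 recomputed differences of the 5 genes, 19 lay within the counting interval of the gene. The exception was Perp, whose difference was 0.80 on the log2(FPKM + 1) scale in place of 1.40, because the larger constant shrinks the differences of low genes. The number of the 5 genes higher by at least 1, which was 1 as deposited, was 0 on the log2(FPKM + 1) scale and 0 with a filter of an FPKM of at least 5, which leaves Perp out, and it was 3 with a threshold of 0.5. Over all genes, 89 of 11253 were higher by at least 1 as deposited, 29 on the log2(FPKM + 1) scale, 83 after centring and 83 after scaling, 267 of 24091 with no filter, and 23 of 7538 with the filter of 5. Of 100 recomputed medians of 17 lists, 91 kept their sign and moved by at most 0.1, a tolerance chosen after the values were seen. The other 9 were death domain receptors and ligands at 0.505 with the filter of 5 and 0.536 as a mean (0.33 as deposited), mesothelial markers at 0.73 on the log2(FPKM + 1) scale and 0.80 with the filter of 5 (1.09), fibroblast markers at -0.05 with the filter of 5 (-0.19), and 4 medians near 0 that changed sign. These 4 were death receptor signalling at 0.02 as a mean, PHLDA and AKT genes at 0.031 as a mean, and the EDA pathway at -0.01 after centring and -0.0042 after scaling. Centring shifted every difference by -0.02 and scaling by -0.01. No paired analysis was possible because there was only 1 library per condition, so leaving out a library was not possible either. Depth limits Perp most, with 38 fragments in the sham-irradiated library.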

Other observations

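The nearest kept genes on either side of the 5 genes, 10 in all, were chosen by position after the values were seen. Their differences ran from -0.19 to 0.65, and 1 was higher by at least 0.5, beside 4.31% of all genes kept. This was Tnnt2, 67.2 kb after Phlda3, which passed the filter only through the irradiated library and so had to be higher to be kept, at an FPKM of 0.685 and 1.13, with a counting interval of the log2 ratio from 0.01 to 1.47. Heph, a ferroxidase gene before Eda2r, differed by 0.42. Acta2, the smooth muscle actin gene before Fas, was at 545 and 643 and differed by 0.24. Hebp2, before Perp, and Ch25h, after Fas, had the same deposited value in both libraries.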
